A study of Mus musculus with 4 samples.

Results

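The calcium pumps described here are the 7 genes Atp2a1, Atp2a2, Atp2a3, Atp2b1, Atp2b2, Atp2b4 and Atp2c1, taken by symbol from the 23366 gene symbols counted in mouse embryonic stem cells. The family was chosen from the change of Atp2a3 in the comparison reported below, so the changes of its members are given as a description and support nothing by themselves. The libraries are poly(A)-selected RNA-seq of R1 cells, an embryonic stem cell line of strain 129X1 x 129S1, grown on gelatin with serum, serum replacement and LIF. The 2 knockdown libraries are from cells transfected with an shRNA against Cyrano, a long noncoding RNA with a deeply conserved stretch that pairs with the microRNA miR-7. The 2 control libraries are from cells transfected with a non-targeting shRNA in the same pSicoR-Ef1a-mCh-Puro vector, which marks transfected cells with mCherry and puromycin resistance. Both groups were enriched for transfected cells by puromycin or by flow cytometry, and the labels do not say which of these served which library. The design text names them biological replicates without saying how cultures were kept apart, so the spread that p-values measure may be partly technical.

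Calcium pumps are P-type ATPases, membrane enzymes that move calcium out of the cytosol against its gradient and pass through a state in which an aspartate carries the phosphate of ATP. The SERCA pumps (Atp2a genes) fill the endoplasmic reticulum, the store from which calcium signals are released and in which many chaperones need calcium to fold proteins. The PMCA pumps (Atp2b genes) expel calcium across the plasma membrane, and the SPCA pump of Atp2c1 loads the Golgi apparatus with calcium and manganese. SERCA1 is the pump of fast skeletal muscle, SERCA2 the pump of heart and of most other cells, and SERCA3 a pump of blood cells, endothelium and some epithelia that has a lower affinity for calcium than SERCA2.

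The codons around the phosphorylated aspartate show how close the family members are, which bears on how reads can be told apart between them. The windows below, for 6 of the pumps, are 63 bases of coding sequence from the transcript with the longest reading frame in GENCODE M21 (GRCm38), and the capitals mark the 7 codons of the motif DKTGTLT, which a search of the translated frames found 1 time in each pump.
Atp2a1: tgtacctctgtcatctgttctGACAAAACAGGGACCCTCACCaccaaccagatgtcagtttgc
Atp2a3: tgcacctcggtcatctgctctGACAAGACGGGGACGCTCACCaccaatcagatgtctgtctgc
Atp2b1: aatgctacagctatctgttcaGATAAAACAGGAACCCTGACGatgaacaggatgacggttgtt
Atp2b2: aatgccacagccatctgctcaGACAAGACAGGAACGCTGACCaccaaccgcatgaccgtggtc
Atp2b4: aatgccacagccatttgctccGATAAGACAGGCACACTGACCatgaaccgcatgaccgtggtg
Atp2c1: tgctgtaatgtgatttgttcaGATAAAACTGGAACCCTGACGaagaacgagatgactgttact

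The aspartate lay at position 351 of each of the 3 SERCA proteins, at 475, 499 and 466 of the proteins of Atp2b1, Atp2b2 and Atp2b4, and at 383 of that of Atp2c1. In this window Atp2a3 was identical to Atp2a1 at 54 of 63 bases and to Atp2c1 at 37 of 63. Over whole translated proteins, SERCA3 shared 75.8% of aligned residues with SERCA2 and 75.8% with SERCA1, while SERCA2 and SERCA1 shared 84.5%. The PMCA proteins shared 75.1% to 83.1% with each other, and pumps of different subfamilies 36.9% to 41.7%. Despite this likeness, the coding transcripts of Atp2a3 and Atp2a2 shared 15 different words of 30 bases, those of Atp2a3 and Atp2a1 28, and those of the PMCA genes 0. Words were taken at every offset, so that a longer shared stretch counts as several overlapping words. A read of at least 30 bases, if free of errors, could therefore fit more than 1 pump in few places.

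The files counted 16854403 to 22321102 reads in genes per library. Of these, the 7 pumps took 11377 and 11672 reads in knockdown libraries 1 and 2, and 10657 and 12535 reads in control libraries 1 and 2. Cyrano, listed as 1700020I14Rik, had 3.99 and 3.16 CPM (read counts relative to the composition-scaled total of the library) in the knockdown libraries, against 24.8 and 15.1 CPM in the control libraries, in the direction of the labels. Markers of pluripotency were abundant in every library, with a summed level over 8 genes of 4287 and 4115 CPM in knockdown and 4412 and 4620 CPM in control libraries. Among them edgeR and limma-voom called 0 genes, and DESeq2, which called 136 genes over all, called Nanog. This gene had 129 and 133 CPM in knockdown and 216 and 228 CPM in control libraries (edgeR adjusted p = 0.0696). An unadjusted edgeR p under 0.05 was found for 3 of the 8 markers, where 11.6% of all genes tested had such a p. By log2 fold change, knockdown over control, Nanog (-0.76) and Esrrb (-0.35) were lower and Dppa5a (0.40) was higher. Rn45s, the ribosomal RNA precursor, took 12.3% and 11.03% of gene counts in knockdown libraries and 17.5% and 15.9% in control libraries, and reads without a unique alignment made up 28.7% and 26.1% of all tallied reads in knockdown and 32.8% and 30.2% in control libraries. Their part in the values below was not tested.

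Per kilobase of transcript, which allows levels to be compared between genes, SERCA2 was the dominant pump of these cells. Atp2a2 had 64.9 and 73.05 CPM per kb in the knockdown libraries and 79.1 and 87.0 CPM per kb in the control libraries, which is 74.5% and 78.5% of the summed pump level after knockdown and 70.8% and 75.05% in the controls. Its level was 7.17 times that of the next pump in knockdown cells and 7.16 times that of the next pump in control cells. The next pump was Atp2c1 after knockdown and Atp2a3 in the controls. Transcripts were measured, not proteins, and length was that of the longest annotated transcript, 5.67 kb for Atp2a2.

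**Figure D1:**
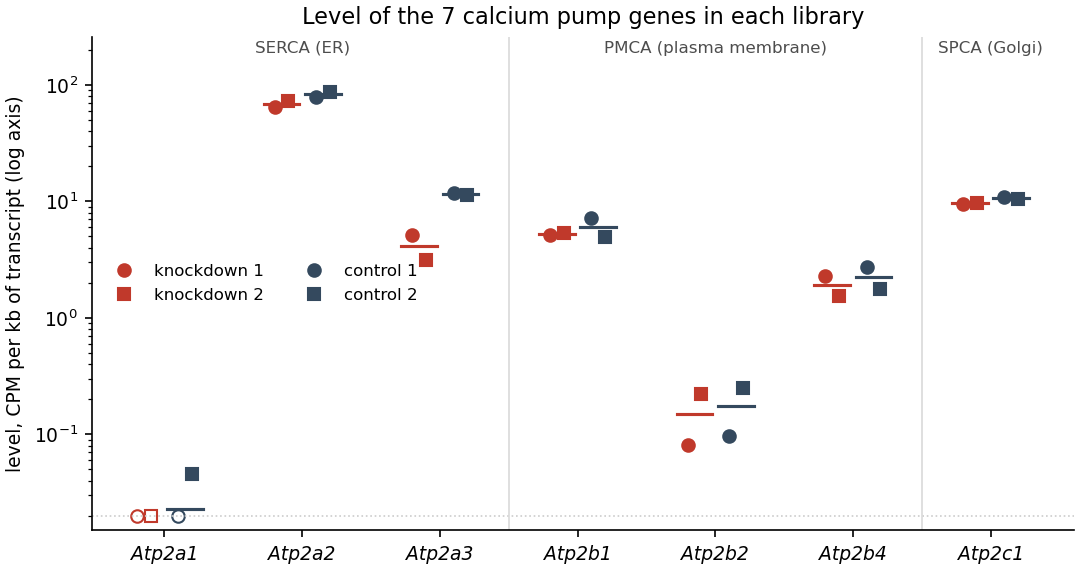
Level of the 7 pump genes in CPM per kb of transcript (log axis), with a point for each library, a bar at each group mean and knockdown left of control. Open points on the dotted line stand for a count of 0. Atp2a3 separates the groups, at 5.18 and 3.17 CPM per kb in knockdown and 11.8 and 11.4 CPM per kb in control libraries.

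Atp2a3, the gene of SERCA3, was the second pump of the control cells and the fourth of the knockdown cells. It had 5.18 and 3.17 CPM per kb in the knockdown libraries and 11.8 and 11.4 CPM per kb in the control libraries. The controls lay close together, whereas the knockdown libraries differed from each other by more than the controls did. On the scale of CPM without length, the gene averaged 19.2 ± 6.57 CPM in knockdown cells and 53.4 ± 1.06 CPM in control cells (SD, n = 2 each), from raw counts of 533 and 314 in the knockdown libraries and 890 and 994 in the control libraries. Its log2 fold change was -1.47 ± 0.22 (SE), a level 2.77-fold lower after knockdown.

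This change is the value that brought the family into view. In edgeR's quasi-likelihood test over 13199 genes, Atp2a3 had an adjusted p of 0.0417 and was 1 of 11 genes called at an adjusted p under 0.05, which is 0.0833% of the genes tested. That number was 1 without control library 1, 0 without control library 2, 191 without knockdown library 1 and 49 without knockdown library 2, and without control library 2 1961 genes had an unadjusted p under 0.05. It ranked 7 by p-value and lay lower than all but 0.8% of genes by fold change. None of the other 5 tested pumps was called, and Atp2a1 had too few reads to be tested. The call of Atp2a3 was lost, with the log2 fold change still at or below -1.34, with RLE factors (adjusted p = 0.0516), under limma-voom (0.0512), with an offset for length and GC content (0.0581), without control library 1 (0.134) and without control library 2 (0.15). Over the alternatives that kept all 4 libraries, the adjusted p ran from 3.31e-15 to 0.0581. The lowest was from edgeR with a block for the replicate numbers, which are not said to pair cultures, and 955 genes were called there. With no filter on low counts it was 3.03e-10 in edgeR, and 332 genes were called. The fold change was -1.88 without knockdown library 1 and -1.16 without knockdown library 2.

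The promoter of Atp2a3 is shown because it is the start of the pump transcript that differed most. The 300 bases below, from 250 before to 50 after the start in RefSeq, lie at chr11:72960919-72961218 on the plus strand of GRCm38.p6, a later build than the mm9 of the files, and the capitals mark matches to the GC box GGGCGG on either strand.
Atp2a3: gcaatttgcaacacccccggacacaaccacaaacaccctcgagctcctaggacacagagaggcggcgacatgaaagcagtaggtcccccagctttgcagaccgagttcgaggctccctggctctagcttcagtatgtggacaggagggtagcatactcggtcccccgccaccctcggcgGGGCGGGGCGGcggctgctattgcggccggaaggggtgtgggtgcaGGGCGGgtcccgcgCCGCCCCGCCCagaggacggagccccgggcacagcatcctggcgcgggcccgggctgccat

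This window held 5 matches to GGGCGG, some of which overlap, and 25 CG dinucleotides, where 35.7% of 32851 promoters of that length held at least 1 such match and the median promoter held 7 CG. The table gave 10 promoters for 6 of the 7 pumps. The number of GC box matches ranged from 0 to 5 among them, with 4 and 3 in those of Atp2b1 and 0 in that of Atp2b4. The number of CG dinucleotides ranged from 4 to 54. Promoters of Atp2b1 (54 and 45), Atp2c1 (36) and Atp2b2 (27) held more of them than that of Atp2a3. No feature of these windows was set against the change of the genes.

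Within the SERCA subfamily, SERCA3 held a smaller and SERCA2 a larger share of the transcripts in the knockdown libraries. Atp2a3 made up 7.40% and 4.16% of the SERCA level per kb after knockdown and 12.9% and 11.6% in the controls, means of 5.78% ± 2.29 and 12.3% ± 0.944 (SD, n = 2 each). In raw counts it was 6.09% of SERCA reads in knockdown library 1 (95% Wilson interval 5.61% to 6.61%) and 3.40% in knockdown library 2 (3.05% to 3.79%). In control libraries 1 and 2 it was 10.8% (10.1% to 11.4%) and 9.63% (9.08% to 10.2%). These intervals cover counting error only, and those of the knockdown libraries overlap neither each other nor those of the controls. A share within a library does not depend on how libraries are scaled. The ratio of Atp2a2 to Atp2a3 per kb was 12.5 and 23.1 in the knockdown libraries and 6.73 and 7.61 in the control libraries.

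Atp2a2 itself had 368 and 414 CPM after knockdown and 449 and 494 CPM in the controls. Both knockdown libraries lay below both controls, and the log2 fold change was -0.27 ± 0.14 (SE). Such an arrangement, both knockdown libraries below both controls, was found in 21.3% of all genes tested and in 3 of the 6 tested pumps, Atp2a2, Atp2a3 and Atp2c1. The rule that chose the family used this contrast, and nothing is read from that count.

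Atp2a1, the gene of the skeletal muscle pump SERCA1, was at the edge of detection. It had 0 and 0 reads in the knockdown libraries and 0 and 3 in the control libraries. A count of 0 allows up to 0.134 and 0.139 CPM in knockdown libraries 1 and 2 and up to 0.183 CPM in control library 1 (a limit of 3 counts), so that no comparison is possible at this depth.

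**Figure D2:**
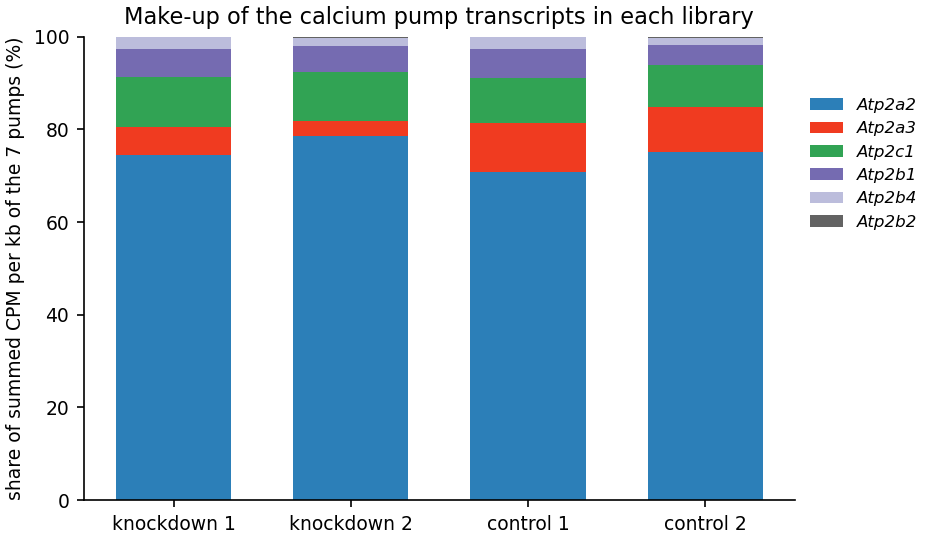
Share of each pump in the summed CPM per kb of the 7 pumps (percent), with 1 stacked bar for each library. Atp2a2 makes up 74.5% and 78.5% in knockdown and 70.8% and 75.05% in control libraries, and Atp2a3 5.96% and 3.40% in knockdown and 10.5% and 9.86% in control libraries. Atp2a1 is too low to be seen.

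The plasma membrane pumps were lower in level than SERCA2 and differed little in make-up between the groups. Atp2b1, which encodes the widely expressed PMCA1, had 5.15 and 5.33 CPM per kb in knockdown and 7.16 and 4.94 CPM per kb in control libraries, and both knockdown libraries lay between the controls. Its log2 fold change was -0.21 ± 0.20 (SE), with a value of 0.08 without control library 1. Atp2b4, which encodes PMCA4, had 2.29 and 1.55 CPM per kb in knockdown and 2.73 and 1.78 CPM per kb in control libraries, with a log2 fold change of -0.23 ± 0.25 (SE). The groups overlapped for Atp2b4 too, and its fold change was 0.11 without control library 1 and 0.03 without knockdown library 2.

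Atp2b2, which encodes PMCA2, a pump known from neurons and the hair cells of the inner ear, had few reads. It had 16 and 42 reads in the knockdown libraries and 14 and 42 reads in the control libraries, and 0.0807 and 0.220 CPM per kb in knockdown against 0.0959 and 0.251 CPM per kb in control libraries. The groups overlapped almost fully. Its log2 fold change of -0.22 ± 0.66 (SE) changed sign without control library 2 (0.64) and without knockdown library 1 (0.32). With 2 libraries a group, this depth cannot show a change of that size. Atp2b1 made up 68.4% and 75.1% of the PMCA level per kb in knockdown and 71.7% and 70.8% in control libraries, and Atp2b4 30.5% and 21.8% in knockdown and 27.4% and 25.6% in control libraries.

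Atp2c1, which encodes the Golgi pump SPCA1, differed little between the libraries of each group. It had 53.4 and 55.0 CPM in knockdown and 61.5 and 59.1 CPM in control libraries, or 9.47 and 9.76 CPM per kb in knockdown and 10.9 and 10.5 CPM per kb in control libraries. Its log2 fold change was -0.15 ± 0.15 (SE). Set against Atp2c1 in the same library, Atp2a3 was 0.547 and 0.325 times as high per kb in the knockdown libraries and 1.08 and 1.09 times as high in the control libraries. Aste1, a gene that overlaps Atp2c1 on the opposite strand in GENCODE M21, had 8.29 and 9.80 CPM in knockdown and 8.76 and 9.64 CPM in control libraries, and the sources used here do not say whether strand was used in counting. GENCODE M21 lists no gene that overlaps Atp2a3. On the opposite strand it lists Rabep2 for Atp2a1, Gm43361 for Atp2a2, antisense transcripts for Atp2b2 and, besides Aste1, Gm19667 for Atp2c1. On the same strand it lists Gm43359 and Gm43360 for Atp2a2, Gm44167 for Atp2b2, and Gm37368 and Mir6903 for Atp2b4.

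In the order of levels per kb, the knockdown cells had Atp2a2, Atp2c1, Atp2b1, Atp2a3, Atp2b4, Atp2b2 and Atp2a1, and the control cells Atp2a2, Atp2a3, Atp2c1, Atp2b1, Atp2b4, Atp2b2 and Atp2a1. Atp2b1 and Atp2a3 overlapped in the knockdown libraries, and Atp2a3 and Atp2c1 lay within a ratio of 1.09 in the controls. All other neighbours were apart in both groups by their ranges. With coding length in place of transcript length, Atp2b4 came before Atp2a3 in the knockdown cells and Atp2c1 before Atp2a3 in the control cells. Summed over the 7 genes, the level was 87.04 and 93.07 CPM per kb in knockdown and 111.7 and 115.9 CPM per kb in control libraries, 20.9% lower by the means. Atp2a2 made up 59.3% of that difference and Atp2a3 31.2%.

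**Figure D3:**
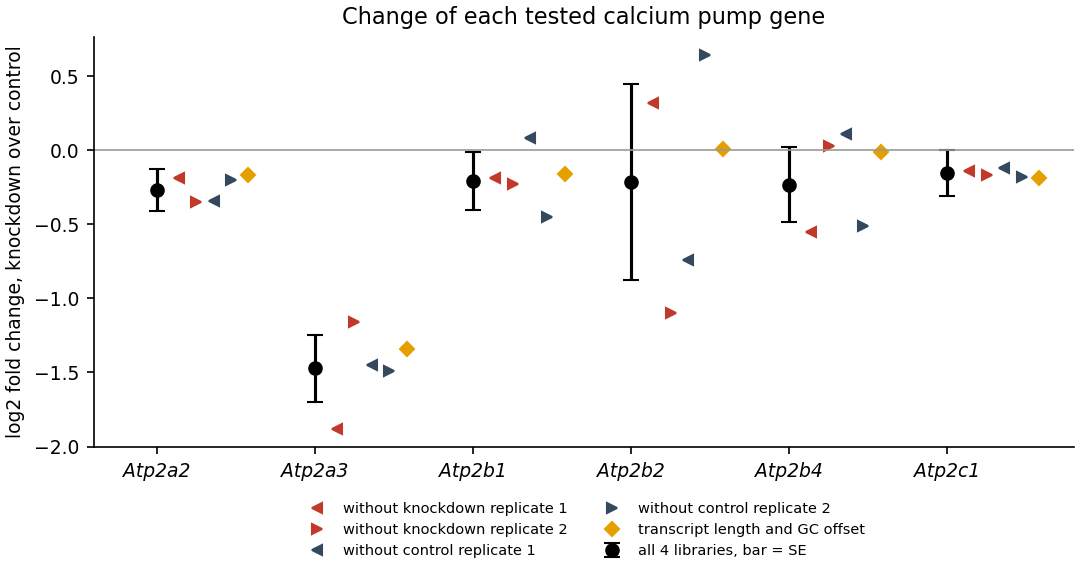
Log2 fold change, knockdown over control, of the 6 tested pumps, with the standard error as a bar, and the value when each library is left out or the offset for length and GC content is used. Atp2a3 lies between -1.88 and -1.16 when a library is left out, and Atp2b1, Atp2b2 and Atp2b4 have values on both sides of 0.

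All 6 tested pumps had a log2 fold change below 0, with a median of -0.23, where 50.2% of all 13199 tested genes were below 0 and the median over all genes was -0.002. Transcript length moved with the fold change across all genes, from a median of 0.12 in the fifth with the shortest transcripts to -0.14 in the fifth with the longest. Of the 6 tested pumps, 5 belonged to the fifth with the longest transcripts, 5.25 kb or more, and Atp2a3 to the fifth below it, where the median was -0.04. With an offset for length and GC content, the log2 fold change was -1.34 ± 0.21 for Atp2a3, -0.17 ± 0.13 for Atp2a2, -0.19 ± 0.14 for Atp2c1, -0.16 ± 0.15 for Atp2b1, -0.01 ± 0.20 for Atp2b4 and 0.01 ± 0.70 for Atp2b2 (SE). Without Atp2a3, the tested pumps lay between -0.27 and -0.15 in the fit with no offset, beside that median of -0.14 for long transcripts.

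Cyrano pairs with miR-7, so the 3′ UTRs of the pumps were searched for the words that match the seed of this microRNA. Its mature form from RefSeq (GRCm38.p6) is given with the seed, bases 2 to 8, in capitals. Below it stand the match in Cyrano that goes on into pairing beyond the seed and the only match of 8 bases among the pumps, with the match in capitals and T for U.
miR-7a-5p: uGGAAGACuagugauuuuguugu
1700020I14Rik: caacaaaatcaccaatGTCTTCCAtttt
Atp2c1: atccagatttcaGTCTTCCAaattttatta

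Neither Atp2a3 nor Atp2a2 held the letters GTCTTCC or TCTTCCA in the longest annotated 3′ UTR, of 1340 and 811 bases, nor did Atp2a1 (306 bases) or Atp2b1 (3024 bases). Atp2c1 held 1 match in 2621 bases, Atp2b2 2 in 4706 bases and Atp2b4 2 in 7234 bases. Among 12586 tested genes with a 3′ UTR of at least 50 bases, whose median length was 1192 bases, 26.4% held a match, and among those with a 3′ UTR of 1500 to 4500 bases 40.5%. Of the pumps, only Atp2b1 and Atp2c1 lay in that window, with the SERCA genes below it and Atp2b2 and Atp2b4 above it. A match is not a binding site, and the absence of these letters says nothing about other routes between Cyrano and a pump.

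The genes whose profile over the 4 libraries was nearest to that of Atp2a3 were Car3, Klhdc7a, Vstm5, Pak6 and Chst3. Likeness was the root mean square distance between log2 CPM values centred on the mean of each gene, over 12109 genes with a mean of at least 1 CPM, and was 0.050 for Car3, the carbonic anhydrase III gene, and 0.088 for Chst3, a carbohydrate sulfotransferase gene. All 5 had fewer reads than Atp2a3 in every library. Car3 had 1.17 and 0.743 CPM in knockdown and 2.98 and 2.75 CPM in control libraries, and Klhdc7a had 3.14 and 2.09 CPM in knockdown and 7.97 and 8.16 CPM in control libraries. The other pumps were no nearer than rank 2168, which Atp2b4 held. With 4 libraries such likeness is a description of these samples.

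The rest of the calcium machinery was looked at through lists of genes by role. At an adjusted p under 0.05 edgeR called 0 of the 101 tested genes in these lists, as did DESeq2 and limma-voom. At an unadjusted p under 0.05 edgeR had 9 higher and 6 lower, where 11.6% of all genes tested had such a p.

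Of 7 counted regulators and partners of the pumps, 4 passed the filter on low counts. Pln (phospholamban) and Sln (sarcolipin), the small membrane proteins that inhibit SERCA in muscle, had 0 reads in all 4 libraries. The related micropeptide gene Mrln (myoregulin), listed as 2310015B20Rik, had 0 and 0 reads in knockdown and 0 and 1 in control libraries. Nptn (neuroplastin) and Bsg (basigin), partners of the PMCA pumps, overlapped between groups, with log2 fold changes of -0.05 and -0.03. Hax1, a binding partner of phospholamban, had 60.3 and 68.9 CPM in knockdown and 64.2 and 71.1 CPM in control libraries. Tmx1, a membrane thioredoxin-like protein of the endoplasmic reticulum, had 32.7 and 44.5 CPM in knockdown and 29.4 and 28.7 CPM in control libraries (log2 fold change 0.41 ± 0.20 (SE), edgeR adjusted p = 0.443). The remaining calcium ATPase genes were near 0, with 1 and 0 reads of Atp2b3 in knockdown and 0 and 6 in control libraries, and 4 and 4 reads of Atp2c2 in knockdown and 1 and 8 in control libraries.

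The channels that let calcium out of the endoplasmic reticulum were transcribed at several levels. The sum of the 9 release and leak channel genes was 520 and 505 CPM in knockdown and 526 and 485 CPM in control libraries, and 7 of 9 were above 0 in log2 fold change (median 0.11). Ryr1, the ryanodine receptor of skeletal muscle, had 24.9 and 20.3 CPM in knockdown and 18.6 and 15.6 CPM in control libraries (log2 fold change 0.40 ± 0.22 (SE), edgeR adjusted p = 0.499). Itpr3, an inositol trisphosphate receptor gene, had 81.1 and 60.7 CPM in knockdown and 106.5 and 74.2 CPM in control libraries (-0.35 ± 0.20 (SE), edgeR adjusted p = 0.526).

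Genes of store-operated entry, which refills the store from outside the cell, had a median log2 fold change of -0.06 over 8 tested members. Stim2, a sensor of calcium in the endoplasmic reticulum, had 30.2 and 23.3 CPM in knockdown and 24.3 and 20.3 CPM in control libraries. Orai2, a pore subunit, was low, at 1.07 and 0.418 CPM in knockdown and 1.46 and 1.75 CPM in control libraries. Of 9 sodium-calcium exchanger genes, 2 passed the filter on low counts. Slc8a2 had 3.18 and 3.48 CPM in knockdown and 4.62 and 5.67 CPM in control libraries, and the mitochondrial exchanger Slc24a6, now named Slc8b1, had 24.5 and 27.4 CPM in knockdown and 23.5 and 31.3 CPM in control libraries.

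Among genes of mitochondrial calcium uptake, the median log2 fold change was 0.10 over 10 tested members. Mcu, the pore of the uniporter, had 11.9 and 13.05 CPM in knockdown and 17.8 and 15.8 CPM in control libraries, with both knockdown libraries lower (-0.42 ± 0.23 (SE), edgeR adjusted p = 0.494). Vdac2, a channel of the outer mitochondrial membrane, had 655 and 640 CPM in knockdown and 496.5 and 526 CPM in control libraries (0.34 ± 0.14 (SE), edgeR adjusted p = 0.362).

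Calcium-binding proteins of the endoplasmic reticulum and Golgi had a median log2 fold change of -0.07 over 16 tested members. Rcn1, a reticulocalbin of the endoplasmic reticulum, had 135 and 133 CPM in knockdown and 190 and 178 CPM in control libraries (-0.46 ± 0.14 (SE), edgeR adjusted p = 0.225). Rcn2, its relative, had 20.2 and 26.1 CPM in knockdown and 17.6 and 14.8 CPM in control libraries (0.52 ± 0.22 (SE), edgeR adjusted p = 0.387). These 2 relatives lay on opposite sides of the controls. The buffer Calr and the chaperone Hspa5, both abundant, had log2 fold changes of 0.11 ± 0.15 and -0.18 ± 0.17 (SE) and overlapped between groups.

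Genes of the unfolded protein response, which senses misfolded protein and an emptied store, had a median log2 fold change of 0.26 over 18 tested members, 13 of them above 0. Manf, a secreted survival factor, had 325 and 363 CPM in knockdown and 222 and 256 CPM in control libraries (0.53 ± 0.15 (SE), edgeR adjusted p = 0.195). Asns, the asparagine synthetase gene, had 280 and 318 CPM in knockdown and 218 and 209 CPM in control libraries (0.49 ± 0.14 (SE), edgeR adjusted p = 0.206). The stress factor Ddit3 varied more within groups than between them, with 47 and 226 reads in knockdown and 13 and 173 reads in control libraries. Eif2ak3, which encodes the sensor kinase PERK, had a log2 fold change of -0.50 ± 0.19 (SE, edgeR adjusted p = 0.344).

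The readers of calcium had a median log2 fold change of 0.16 over 21 tested members. In 11 of them both knockdown libraries lay above both controls, an arrangement found in 22.3% of all genes tested. In 4 both lay below both controls, as in 21.3% of all genes tested. At an unadjusted edgeR p under 0.05, 2 were higher and 2 lower. Ppp3cb, a catalytic subunit of the calcium-dependent phosphatase calcineurin, had 75.5 and 85.1 CPM in knockdown and 55.7 and 53.2 CPM in control libraries (0.56 ± 0.15 (SE), edgeR adjusted p = 0.187). Ppp3r1, its regulatory subunit, had 233 and 282.5 CPM in knockdown and 143 and 193 CPM in control libraries (0.61 ± 0.17 (SE), edgeR adjusted p = 0.195).

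Other ATPases of the P-type class were listed together with beta subunits, which are not P-type ATPases themselves. The 13 tested genes of this list had a median log2 fold change of 0.27, with 8 above 0. That median was the value of Atp1b1, and the beta subunit genes Atp1b1, Atp1b2 and Atp1b3 were all above 0. The tested ATPases of the list ran from -0.68 (Atp7a) to 0.87 (Atp1a4). Atp1b3, a beta subunit of the sodium pump, had 173 and 165 CPM in knockdown and 117 and 142 CPM in control libraries (0.38 ± 0.15 (SE), edgeR adjusted p = 0.348).

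**Figure D4:**
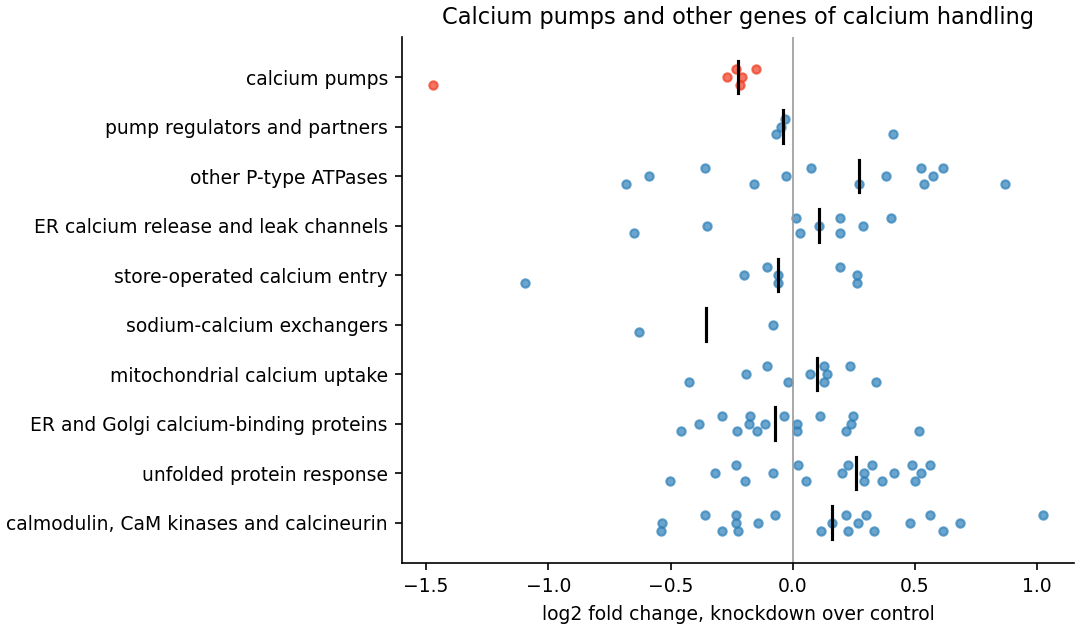
Log2 fold change, knockdown over control, of every tested gene (points) in the calcium pump family and in 9 lists of related genes, with the median of each as a vertical line. Atp2a3 at -1.47 stands below every gene of these 9 lists, the lowest of which is Orai2 at -1.10. The family was chosen from this change of Atp2a3, so nothing is read from its place.

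Cell types other than stem cells that use these pumps were checked by their markers. Of 10 blood and platelet markers, 6 had 0 reads in every library, among them Ptprc, Gp9 and Pf4, and the list summed to 4.12 and 3.25 CPM in knockdown and 4.14 and 3.12 CPM in control libraries. Endothelial markers summed to 77.1 and 68.9 CPM in knockdown and 97.9 and 69.1 CPM in control libraries, mostly Pecam1, which stem cells transcribe too, and Emcn was at 0. Skeletal muscle markers had 15 reads or fewer per gene and library apart from Mylpf and Actn3. Actn3 had 10.8 and 10.7 CPM in knockdown and 22.8 and 35.3 CPM in control libraries (-1.43 ± 0.24 (SE), edgeR adjusted p = 0.0563, called by DESeq2). Fibroblast markers Col3a1, Dcn, Lum and Postn had 0 reads in every library, and that list summed to 53.1 and 26.3 CPM in knockdown and 44.6 and 31.4 CPM in control libraries. Most of that sum was Thy1, at 48.02 and 20.4 CPM in knockdown and 38.02 and 21.55 CPM in control libraries. Pdgfrb and Col1a1 also passed the filter on low counts. Cardiac markers summed to 6.60 to 8.65 CPM and neuronal markers to 123 and 162 CPM in knockdown and 155 and 195 CPM in control libraries. Most of the neuronal sum was Tubb3, at 90.4 and 129 CPM in knockdown and 122 and 162 CPM in control libraries. Rbfox3, Snap25 and Syt1 had 10 reads or fewer in each library.

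Markers of primitive endoderm, the extraembryonic lineage that stem cells can enter, moved with the groups. Their summed level over 8 genes was 177 and 209 CPM in knockdown and 106 and 126 CPM in control libraries. The log2 fold change was above 0 for all 8 (median 0.85). The unadjusted edgeR p was under 0.05 for 6, where 11.6% of all genes tested had such a p. At the adjusted threshold edgeR and limma-voom had 0 calls, while DESeq2, which called 136 genes over all, had calls for Gata4 and Pdgfra. In bulk RNA, a change in the number of such cells and a change in transcripts per cell cannot be told apart, and the part of this shift in the level of Atp2a3 was not tested.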

How the data were processed

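Poly(A) RNA-seq libraries, 2 of knockdown and 2 of control cells, were grouped by the sample titles. The authors deposited raw read counts per gene symbol, 1 file per library, which sum to 16854403 to 22321102. Per the submitters' processing notes, TopHat, HTSeq, SAMtools and bedtools were used with build mm9, and per the labels' protocols the libraries were strand-specific (dUTP). The sources used here give no versions, annotation or strand setting. The 5 closing tallies of each file, which name no gene, held 33.1% to 40.8% of tallied reads and were left out.

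The test of these counts was that of edgeR 4.0.16 (R 4.3.3): filterByExpr (minimum count 10), TMM factors, glmQLFit with robust estimation and glmQLFTest, two-sided, group as the only term, Benjamini-Hochberg adjustment over 13199 genes, threshold 0.05. Standard errors were obtained by dividing the size of each log2 fold change by the root of its F statistic. The biological coefficient of variation was 17.4%. The fit was tested on simulated data. DESeq2 1.42.0 and limma 3.58.1 (voom) were alternatives, as were RLE and upper-quartile factors, library size only, no filter on low counts, a replicate block, an offset, and leaving out each library. An exact permutation test of 2 against 2 libraries cannot go below p = 0.333, so none is given for single values. The offset for length and GC content came from splines with 4 degrees of freedom for each library.

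Transcript lengths and sequences are from GENCODE M21 (GRCm38), matched by symbol for 98.5% of symbols, and promoters and microRNAs from RefSeq GRCm38.p6. Neither is the build of the files, so the only coordinates given are those of the printed promoter, in GRCm38.p6. Members, lists and tests were chosen with earlier results of these data known. There were 10 lists of related genes and 8 of markers. In each related list the 2 members with the lowest unadjusted p were named, except 1 that is not reported here, and further members were named after their values were seen. The genes most like Atp2a3 were the 5 nearest by root mean square distance (prior count 2). Of the listed regulators, Arln, Erln and Strit1 were not matched to a symbol and were not analysed here.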

Additional observations from a re-analysis of the deposited data

How the results depend on the processing

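Each of the 6 tested pumps was refitted under 13 alternatives. Atp2a3 kept its direction in all 13 and its call in 8. It was not called with RLE factors (-1.48), limma-voom (-1.51) or the length and GC offset (-1.34), or without either control library, and its log2 fold change ran from -1.88 to -1.16 over left-out libraries, where the lone library of a group is assumed to vary like the other group. Atp2a2 and Atp2c1 were below 0 and not called in all 13. Over left-out libraries Atp2b1 ran from -0.45 to 0.08, Atp2b2 from -1.10 to 0.64 and Atp2b4 from -0.55 to 0.11. Atp2b2 was also above 0 with the length and GC offset (0.01) and with the replicate block and that offset (0.01). DESeq2 gave Atp2b2 no adjusted p. The 11 genes called over all became 6 with RLE factors, 26 with upper-quartile factors, 50 with library size only, 332 with no filter on low counts, 136 by DESeq2, 3 by limma-voom, 7 with the length and GC offset, and 0 to 191 over left-out libraries. Of genes whose unadjusted p was under 0.05, 66.9% were higher with library size only, beside 53.2% with TMM factors. The replicate numbers in the titles are not said to pair cultures. Deviations of same-numbered libraries from their group means correlated at 0.244 across genes, with only 2 pairs. With the replicate block 955 genes were called, and 608 with the block and the length and GC offset, and Atp2a3 had -1.51 and -1.37. After knockdown, the share of Atp2a3 in SERCA was 4.77% with coding length, 4.75% in raw counts and 4.16% to 7.40% over left-out libraries. In the controls it was 10.25% with coding length, 10.2% in raw counts and 11.6% to 12.9% over left-out libraries. The share of SERCA in all pumps was 78.5% with coding length and 78.02% in raw counts after knockdown, against 81.2% as reported, and 80.5% and 79.9% in the controls, against 83.1%. These shares move because length differs between pumps. The depth limits Atp2a1 and Atp2b2, and 2 libraries a group limit the rest. For the other changes the cause was not tested.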
